A study of Mus musculus with 6 samples.

Results

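The genes described here encode subunits of chromatin remodeling complexes, 39 in all, and they were found by symbol among the 24972 genes of a table of normalized counts from mouse cortex. They were sorted by role into 16 core and accessory subunits of the BAF complex, 4 subunits typical of its progenitor form, 4 subunits typical of its neuron form, 3 subunits of the related PBAF complex, and 12 ATPases of the ISWI, CHD and INO80 families. All 39 had at least 10 normalized counts in at least 3 libraries and were therefore tested. RNA was sequenced from cortex at postnatal day 7 (P7), in 3 wildtype libraries and 3 libraries labelled Zmiz1-KO. The wildtype mice were Zmiz1 f/f and the knockout mice were Zmiz1 f/f;Emx1-Cre, so both groups carried the floxed alleles and only the second carried Cre. Emx1-Cre acts in the lineage of the dorsal telencephalon that gives rise to the excitatory neurons and many glia of the cortex, and leaves interneurons, microglia and vessels with an intact gene. Whether each library came from 1 animal is not stated, so the spread between libraries may be in part technical.

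The BAF complex is the mammalian SWI/SNF remodeler, which uses ATP to slide or evict nucleosomes and so opens DNA to transcription factors. Its catalytic subunit is either Smarca4 or Smarca2, and Zmiz1, a transcriptional co-regulator, is a known partner of Smarca4. When neural progenitors leave the cell cycle, several subunits are exchanged for neuronal relatives, with Actl6a giving way to Actl6b, Phf10 and Dpf2 to Dpf1 and Dpf3, and Ss18 to Ss18l1. PBAF is a sister complex with its own targeting subunits, whereas ISWI remodelers space nucleosomes evenly and several CHD proteins act in the repressive NuRD complex. Mutations in many of these genes cause intellectual disability or autism. The comparison asked whether the RNA of these subunits differs in cortex labelled as lacking their partner Zmiz1.

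The normalized counts of a library summed to between 32661979 and 33239707, and the numbers of reads could not be recovered from them. Zmiz1 itself, at chr14:25459185-25666743 of GRCm38, had 8119, 7929 and 7461 normalized counts in wildtype, against 9944, 9779 and 9660 with the knockout label. Zmiz1 was thus higher in every library with the knockout label, by 0.32 ± 0.04 on the log2 scale (SE; limma adjusted p = 0.00125), and a count over the whole gene does not show whether the floxed exons are missing. Emx1, whose promoter drives Cre, was picked after its values were seen. It had 818, 688 and 784 normalized counts in wildtype against 532, 473 and 583 (log2 fold change -0.53, limma adjusted p = 0.015). Its values separated the libraries by label, as did those of 16.3% of all tested genes. The labels give the tissue as cortex, although a treatment note mentions isolated progenitors. The 6 neuron markers (Rbfox3, Snap25, Syt1, Stmn2, Tubb3 and Map2) summed to 225317 to 245789 normalized counts per library, against 6812 to 7705 for 6 cortical progenitor markers and 2358 to 2729 for 6 proliferation markers, so neuronal genes were at high levels in every library and progenitor genes were detected. Among the marker lists of other cells, none of the 6 interneuron markers and none of the 6 striatal markers passed the test, but all had positive fold changes, and the summed levels did not overlap between the groups for either list, with 13534 to 17706 against 17930 to 20079 for interneurons and 9224 to 12655 against 12993 to 14474 for striatum. The summed level of the progenitor list was also higher with the knockout label (6812 to 7334 against 7567 to 7705), while those of the astrocyte (31218 to 32921 against 29228 to 31129) and oligodendrocyte lists (11130 to 12623 against 10321 to 10911) were lower. Among the genes of these lists, only the astrocyte water channel Aqp4 passed the test (log2 fold change -0.29, limma adjusted p = 0.00499), and each list held 1 gene with the opposite sign, at -0.29 in the progenitor list, 0.083 in the astrocyte list and 0.025 in the oligodendrocyte list. The summed levels of neuron, proliferation, microglia, endothelium and choroid plexus markers overlapped, and no marker was at 0 in every library. The part of cell composition in the results that follow was not tested.

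None of the 39 remodeler genes passed the test between the groups at an adjusted p of 0.05 (limma on log2(value + 1), Benjamini-Hochberg adjustment over 15800 genes), while 0.411% of all tested genes did. At an unadjusted p under 0.05, 3 of the 39 (7.69%) were found, namely Arid1b, Smarcd3 and Pbrm1, against 11.0% of all tested genes. In 5 of the 39 (12.8%) the 3 values of one group all lay above the 3 of the other, against 16.3% of all tested genes. The groups were separate with the knockout label higher for Smarcd3, Bcl7b and Actl6b (7.69% of the members, 8.10% of all tested genes) and lower for Arid1b and Pbrm1 (5.13% and 8.16%). Each of these shares of the members lay near and somewhat below the background share, and that difference was not tested.

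The differences were small in size. On the log2 scale, the members differed between the groups by -0.22 to 0.16. Of them, 14 were positive and 25 negative, against 7890 and 7910 of all tested genes. Their median was -0.023 against -0.00018 for all tested genes. The split of signs changed with the processing, as given at the end. The median absolute log2 fold change was 0.045, equal to a difference of 3.14%, against 0.075 for all tested genes and 0.056 for the 11232 genes within the members' range of mean levels. With 3 libraries a group, the precision still allowed limits to be set. The 95% confidence interval of the difference lay within 25% of no change for 37 of the 39 genes, within 20% for 34 and within 15% for 30, and the exceptions to the widest limit were Dpf3 (-29% to 3.75%) and Chd7 (-5.38% to 27.3%), both among the genes with the lowest levels.

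**Figure D1:**
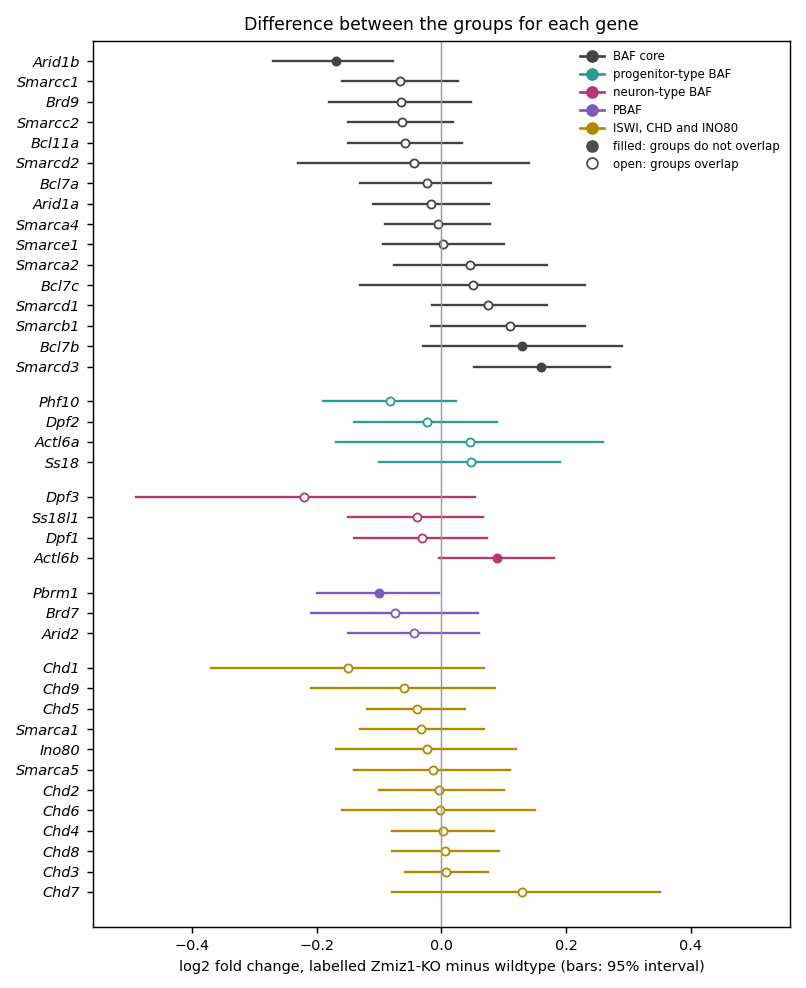
Log2 fold change of each remodeler gene, libraries labelled Zmiz1-KO minus wildtype (3 libraries each), with bars for the 95% confidence interval and colors for the groups of subunits. Filled points mark the 5 genes whose groups did not overlap, and the bars of only Arid1b, Smarcd3 and Pbrm1 leave out 0.

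**Figure D2:**
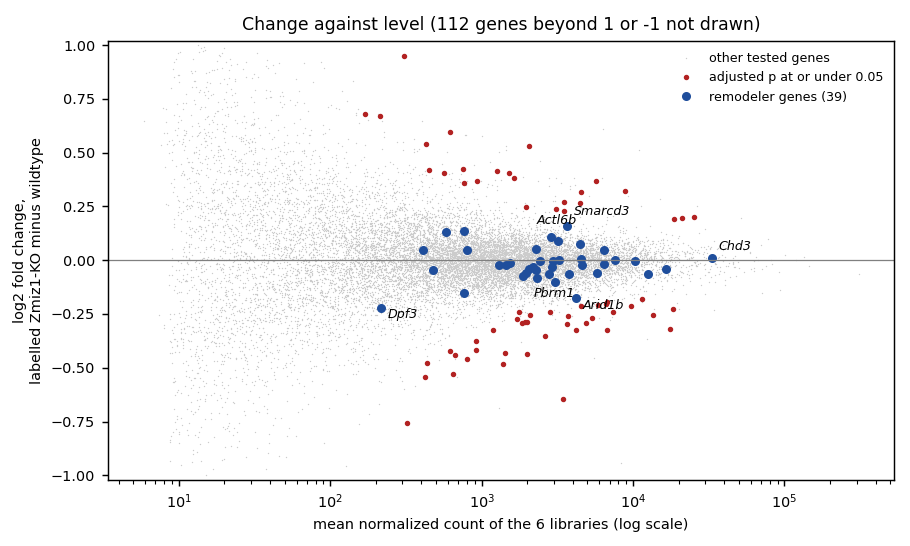
Log2 fold change (libraries labelled Zmiz1-KO minus wildtype) against the mean normalized count of the 6 libraries on a log axis, for all 15800 tested genes except 112 beyond 1 or -1. The 39 remodeler genes (blue) lie in the band of small changes, apart from the 65 genes past the adjusted p of 0.05 (red).

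Among the core subunits of BAF, the values of both catalytic genes overlapped between the groups. Smarca4, the ATPase that partners with Zmiz1, had 10616, 10216 and 10176 normalized counts in wildtype and 10173, 10763 and 9950 with the knockout label. The values interleaved, the log2 fold change was -0.0062 ± 0.04 (limma adjusted p = 0.977), and the interval of the difference ran from -6.05% to 5.53%. Smarca2, the alternative ATPase, had 5696, 6545 and 6824 normalized counts against 6502, 6529 and 6575, the lowest value being wildtype replicate 1 (log2 fold change 0.045, limma adjusted p = 0.845). Compared per kb of merged exon, Smarca2 stood at 0.538 ± 0.061 of Smarca4 in wildtype and 0.555 ± 0.024 with the knockout label (SD, n = 3). Smarca4 thus made up 63.1% to 68.1% of the ATPase RNA in every library. By the longest transcript of each gene, that share was 58.1% to 63.4%.

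The largest differences among the core genes were those of Arid1b and Smarcd3. Arid1b, a DNA-binding subunit of canonical BAF whose loss from a single allele causes Coffin-Siris syndrome, spans 353 kb at chr17:4994332-5347656. It had 4601, 4430 and 4333 normalized counts in wildtype and 4164, 3909 and 3773 with the knockout label. Every wildtype library thus lay above every library labelled Zmiz1-KO, with a log2 fold change of -0.17 ± 0.046 and a 95% interval of the difference of -17.2% to -5.23%, which did not pass the adjusted threshold (limma adjusted p = 0.145). Its paralog Arid1a, which takes the same place in the complex, had 6819, 6389 and 6087 normalized counts against 6508, 6226 and 6313, and these overlapped (log2 fold change -0.017, limma adjusted p = 0.929). The ratio of Arid1b to Arid1a per kb, which cancels the scaling of a library, was 0.504, 0.518 and 0.532 in wildtype and 0.478, 0.469 and 0.447 with the knockout label. These ratios did not overlap and differed by -0.16 on the log2 scale, with an SD between libraries of 0.039 in wildtype and 0.051 with the knockout label. The ratio holds the same Arid1b values and so is not a separate result. In every other ratio examined, the groups overlapped.

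Smarcd3, the SMARCD subunit best known from heart and postmitotic neurons, had 3395, 3329 and 3688 normalized counts in wildtype and 3778, 3728 and 4138 with the knockout label. Wildtype replicate 3 lay just under the lowest library of the other group, so the separation was narrow, and the log2 fold change was 0.16 ± 0.052 (limma adjusted p = 0.236). Smarcd3, at chr5:24590818-24624411, shares 33% of its exon bases with Chpf2 on the opposite strand, and 41.6% of its 75-base stretches also occur in transcripts of other genes. The library kit did not mark strand, so reads of the shared stretch cannot be told apart, and Chpf2 had 2373, 2470 and 2540 normalized counts against 2686, 2479 and 2739 (log2 fold change 0.10, limma adjusted p = 0.507). Of its paralogs, Smarcd1 had means of 4374 ± 84.2 and 4611 ± 179 normalized counts and Smarcd2 had 486 ± 32.2 and 472 ± 31.1 (SD, n = 3). Per kb, Smarcd3 supplied 53.6% to 57.5% of the RNA of this family and Smarcd1 38.3% to 41%, with overlapping shares in the 2 groups.

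Of the remaining core genes, only Bcl7b had groups that did not overlap. Bcl7b, one of 3 small BCL7 subunits that bind the ATPase module, had 556, 570 and 549 normalized counts in wildtype and 639, 576 and 622 with the knockout label, which were narrowly separate (log2 fold change 0.13, limma adjusted p = 0.563). Its paralogs overlapped, with means of 4618 ± 331 and 4539 ± 48.1 for Bcl7a and 2258 ± 235 and 2337 ± 198 for Bcl7c (SD, n = 3). Smarcb1, the tumor suppressor that anchors the complex to the nucleosome, had 2598, 2792 and 2937 normalized counts against 3087, 2744 and 3148, replicate 2 with the knockout label lying among the wildtype ones (log2 fold change 0.11, limma adjusted p = 0.534). The scaffold pair Smarcc1 and Smarcc2 had nearly equal log2 fold changes of -0.066 and -0.064 (limma adjusted p = 0.632 and 0.593), and their ratio per kb was the steadiest of the 10 ratios examined at 4.11 to 4.22 over the 6 libraries. The log2 fold changes of Smarce1, a DNA-bending HMG-box subunit (0.0021), Bcl11a, a zinc finger subunit also active in cortical projection neurons (-0.059), and Brd9, the bromodomain subunit of non-canonical BAF (-0.065), had adjusted p values of 0.994, 0.668 and 0.717 by limma.

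The subunits that are exchanged between progenitors and neurons did not differ between the groups past the threshold, and the neuronal gene was the higher in 2 of the 3 families, the actin-like and the SS18 genes. Actl6b, the neuronal actin-like subunit needed for dendrite growth, had 3213, 2997 and 3061 normalized counts in wildtype and 3232, 3308 and 3318 with the knockout label. All 3 knockout libraries lay above wildtype, the closest only slightly, with a log2 fold change of 0.089 ± 0.044 and an interval of -0.295% to 13.5% (limma adjusted p = 0.485). Actl6a, the form found in dividing progenitors, had 359, 392 and 453 normalized counts against 422, 432 and 383, which overlapped (log2 fold change 0.045, limma adjusted p = 0.921). Actl6a shares 22.5% of its exon bases with Mrpl47 on the opposite strand, whose log2 fold change was 0.13 (limma adjusted p = 0.722).

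Repression of Actl6a by miR-9-3p (also called miR-9*) in new neurons is part of the known switch from Actl6a to Actl6b, and the site is printed because, of the exchanged subunits, this pair has the largest excess of the neuronal over the progenitor gene. The mature mouse miRNA from RefSeq (GRCm38.p6) is given with its seed, bases 2 to 8, in capitals, and the stretch of the Actl6a 3′ UTR at chr3:32726625-32726648 (GRCm38, plus strand) with the matching bases in capitals.
mmu-miR-9-3p: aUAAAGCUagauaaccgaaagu
Actl6a site: cacctcaacgtctgtAGCTTTAgt
The motif AGCTTTA, searched on the transcript strand only, occurs once in the 371 bases of the Actl6a 3′ UTR and not in the 196 bases of that of Actl6b. It is not particular to Actl6a, since 8 of the 39 members (Smarca2, Smarcc1, Smarcd2, Smarce1, Bcl11a, Actl6a, Arid2 and Ino80) and 11.3% of 20913 genes hold it in their 3′ UTR. The miRNA was not measured in these libraries, and a match is a description of letters and not of binding.

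Per kb of exon, Actl6b exceeded Actl6a 9.83 ± 1.4-fold in wildtype and 10.1 ± 0.74-fold with the knockout label (SD, n = 3), with single libraries from 8.54 to 11.3. Actl6b thus made up 89.5% to 91.9% of the RNA of the pair. In bulk tissue, fewer progenitors and less Actl6a RNA per cell cannot be told apart. Ss18l1, the calcium-responsive neuronal relative of Ss18, exceeded it 2.77 ± 0.23-fold in wildtype and 2.61 ± 0.16-fold with the knockout label, and held 71.3% to 75% of the RNA of that pair. Ss18 had means of 788 ± 31 and 815 ± 31.6 normalized counts and Ss18l1 of 2094 ± 98.5 and 2036 ± 47.2, both with limma adjusted p values above 0.8 (0.864 and 0.844).

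The PHD finger subunits, which read acetylated and methylated histone tails, did not show the same predominance. Phf10, the progenitor-type member and also a subunit of PBAF, held the largest share at 44.6% to 49.2% per kb, ahead of the neuronal Dpf1 at 35.3% to 39%, Dpf2 at 13.7% to 14.7% and Dpf3 at 1.71% to 2.27%. The ratio of Dpf1 to Phf10 was 0.717, 0.817 and 0.876 in wildtype and 0.851, 0.823 and 0.815 with the knockout label, so the wildtype libraries spanned the others. Of the 39 genes, Dpf3 had the lowest level per kb and the most negative fold change, with 204, 249 and 252 normalized counts in wildtype and 183, 221 and 199 with the knockout label. Wildtype replicate 1 lay among the libraries of the other group, and the log2 fold change of -0.22 ± 0.13 did not reach the threshold (limma adjusted p = 0.567). Phf10, Dpf2 and Dpf1 had log2 fold changes of -0.083, -0.024 and -0.032 (limma adjusted p = 0.587, 0.918 and 0.876), and 25.8% of the exon bases of Phf10 overlap another annotated gene.

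**Figure D3:**
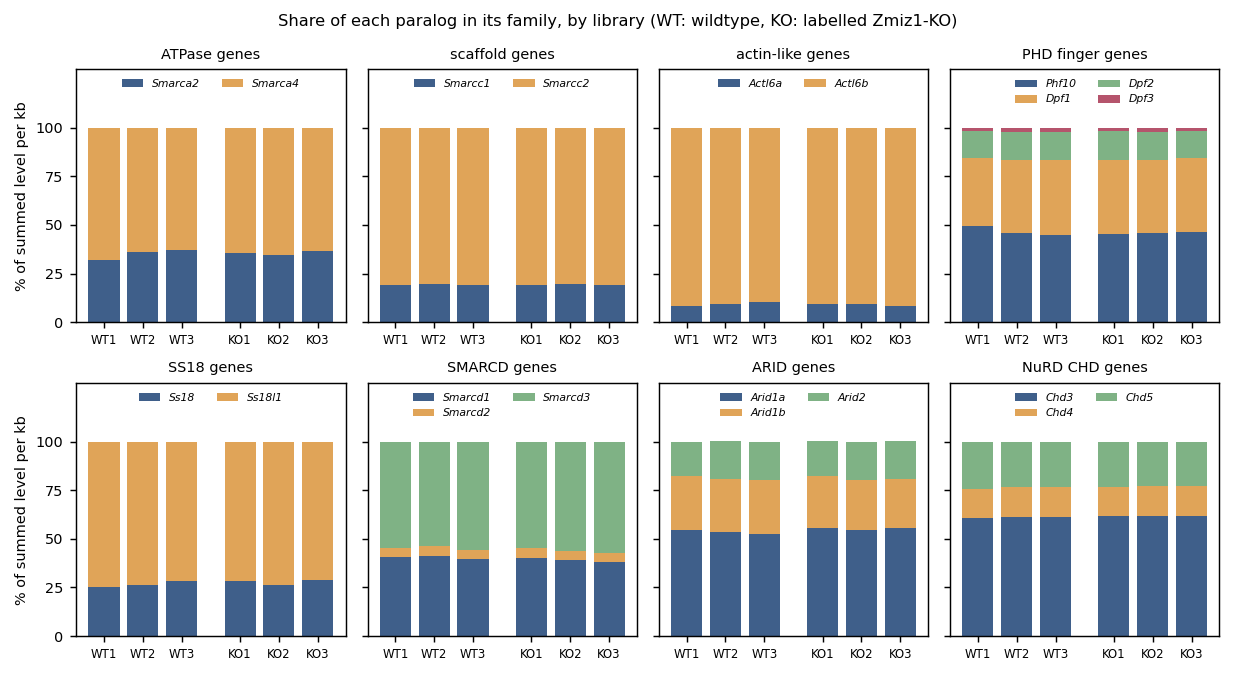
Share of each paralog in the summed level per kb of its family, in percent, as 1 stacked bar per library for 3 wildtype (WT) and 3 libraries labelled Zmiz1-KO (KO). Actl6b fills 89.5% to 91.9% of its pair in every library, and the share of Arid1b is 27.6% to 27.9% in wildtype and 24.9% to 26.6% with the knockout label.

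All 3 PBAF genes had negative fold changes, and none passed the test. Pbrm1, a protein with several bromodomains that targets PBAF to acetylated chromatin, had 3144, 3260 and 3134 normalized counts in wildtype and 2858, 3085 and 2959 with the knockout label. The lowest wildtype library stood just above the highest of the other group, with a log2 fold change of -0.10 ± 0.045 and an interval of -12.7% to -0.284% (limma adjusted p = 0.427). Arid2, the DNA-binding subunit that defines PBAF, had 2249, 2354 and 2337 normalized counts against 2145, 2326 and 2265, and Brd7, a bromodomain subunit, 2111, 1776 and 1926 against 1898, 1732 and 1883. Both overlapped, with log2 fold changes of -0.044 and -0.074 (limma adjusted p = 0.813 and 0.729).

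The 12 ISWI, CHD and INO80 ATPases had the smallest median absolute log2 fold change of the sets of subunits, at 0.018, equal to 1.28%. Single genes of this set ran from -0.15 to 0.13, a wider range than that of the progenitor-type or PBAF genes. None of the 12 separated the libraries by label, and neither did any of the 4 progenitor-type genes, against 16.3% of all tested genes. Chd3, a NuRD ATPase of postmitotic neurons, had the highest level of all 39 genes per kb and also the steadiest level over the 6 libraries, with 33113, 33257 and 32854 normalized counts in wildtype and 33457, 33025 and 33276 with the knockout label. These values differed between libraries of a group by a coefficient of variation of 0.618% and 0.653%, and the interval of the difference, -3.98% to 5.27%, was the narrowest of the members. Chd5, the NuRD ATPase confined largely to neurons, had 17316, 16388 and 16447 normalized counts against 16629, 16021 and 16164, and Chd4, the most widely used of the 3, 7505, 7949 and 7463 against 7550, 7712 and 7689. Per kb, Chd3 supplied 60.8% to 61.4% of the RNA of these 3 genes in wildtype and 61.6% to 61.7% with the knockout label, shares that did not overlap but differed by only 0.5 percentage points, and Chd5 supplied 22.9% to 24.3% and Chd4 14.9% to 15.8%.

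Chd8, a frequent site of mutations in autism, had 4432, 4535 and 4504 normalized counts in wildtype and 4366, 4551 and 4616 with the knockout label. The knockout libraries spanned the wildtype ones (log2 fold change 0.0063, interval -5.4% to 6.65%, limma adjusted p = 0.977). Chd7, mutated in CHARGE syndrome, had 627, 839 and 736 normalized counts against 833, 844 and 729, and its log2 fold change of 0.13 rested on wildtype replicate 1, without which it was 0.026 (limma adjusted p = 0.675 with all libraries and 0.958 without). Chd1, which binds the histone mark of active promoters, had 800, 847 and 771 normalized counts against 653, 876 and 667. Replicate 2 labelled Zmiz1-KO was the highest of the 6 and the other 2 of that group were the lowest, and the log2 fold change was -0.15 with all libraries and -0.29 without that library (limma adjusted p = 0.639 and 0.105).

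Chd2, an epilepsy gene, Chd6 and Chd9 had log2 fold changes of -0.0034, -0.0021 and -0.06 (limma adjusted p = 0.99, 0.997 and 0.817), and 17.3% of the 75-base stretches of Chd2 also occur in other transcripts. Of the ISWI ATPases, Smarca5 had means of 1541 ± 79.9 and 1526 ± 69.2 normalized counts (SD, n = 3), with 22.2% of its stretches shared with other transcripts, and Smarca1, enriched in brain, had 2227, 2229 and 2202 against 2109, 2260 and 2140. Smarca1 is X-linked, and Xist was at 25307 and 24403 normalized counts in wildtype replicate 3 and replicate 2 labelled Zmiz1-KO and at 12.9 to 57.3 in the others, without Smarca1 standing apart in those libraries. Ino80, which moves nucleosomes at replication forks and promoters, had 1357, 1239 and 1337 normalized counts against 1438, 1250 and 1193 (log2 fold change -0.023, limma adjusted p = 0.941).

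Levels were compared between genes per kb of exon, as normalized counts divided by the length of the merged exons of the gene. After Chd3 at 4567 ± 29.2 (mean and SD of the 6 libraries) came Smarcc2 at 2453 ± 96.1 and Actl6b at 2003 ± 82.7, and neither Chd3 nor Smarcc2 overlapped with the gene below it. From Actl6b through Smarcd3 (1891), Chd5 (1739), Smarcb1 (1737) and Bcl7c (1661) down to Smarca4 (1618), each gene's libraries overlapped with those of its neighbor, and the same held from Dpf1 (1143) through Chd4 (1138) and Brd9 (1137) to Smarce1 (1109). The ISWI and INO80 ATPases stood lower, with Smarca1 at 372, Smarca5 at 251 and Ino80 at 198, and the lowest 3 genes were Chd1 at 91.5, Chd7 at 74.1 and Dpf3 at 59.9. The choice of length mattered most for Bcl7a, at 511 by merged exons and 970 by the longest transcript. By the longest transcript, Smarcd3 (2119) and Bcl7c (2030) stood above Actl6b (2003).

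**Figure D4:**
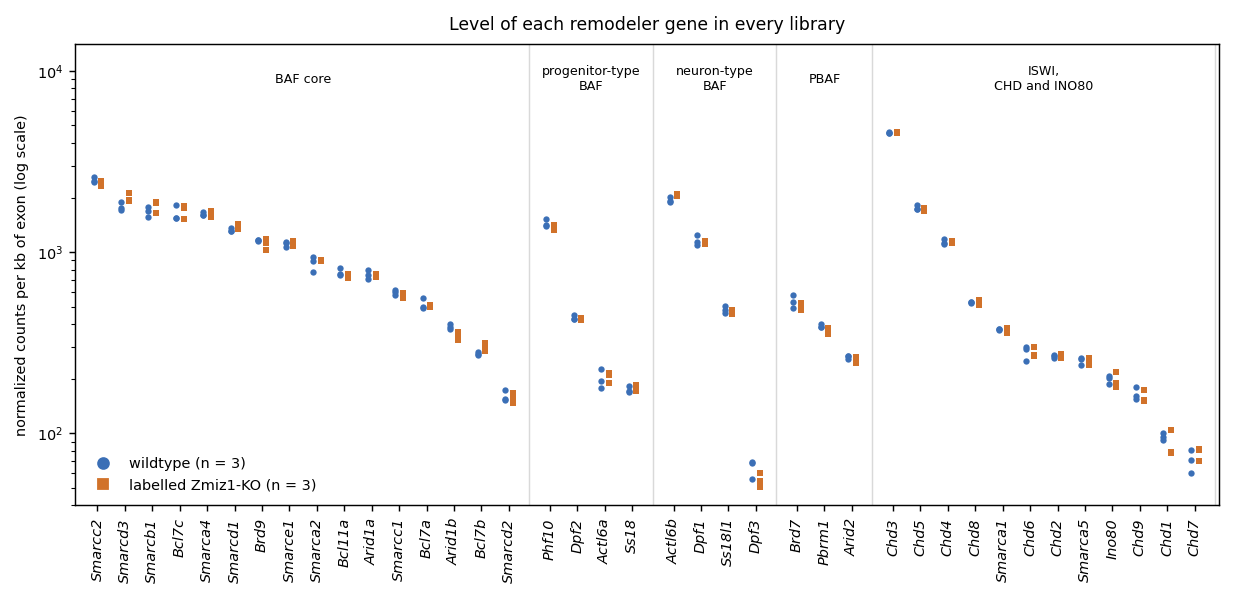
Normalized counts per kb of merged exon (log axis) for each of the 39 genes, with 1 point per library for wildtype (circles, n = 3) and for libraries labelled Zmiz1-KO (squares, n = 3), sorted by level within each group of subunits. Chd3 (4567) and Dpf3 (59.9) mark the ends of the range, and the groups overlap for all genes but Arid1b, Smarcd3, Bcl7b, Actl6b and Pbrm1.

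For most members the spread between libraries did not follow the genotype labels, which also held for most tested genes. The groups were separate in 12.8% of the members and 16.3% of all tested genes. The highest and lowest libraries were counted for the members only, so these counts have no background share. Wildtype replicate 1 was the highest of the 6 libraries for 11 of the 39 genes, among them Arid1a, Bcl11a, Chd5 and Smarcc2, and the lowest for 8, among them Smarca2, Actl6a, Chd6 and Chd7, so that it was an extreme for more members than any other library. The other libraries were the highest for 5 or 6 genes each and the lowest for 4 to 9. The coefficient of variation within a group reached 17.1% for Chd1 with the knockout label and 14.4% for Chd7 in wildtype, but was under 1% for Chd3 in both groups.

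**Figure D5:**
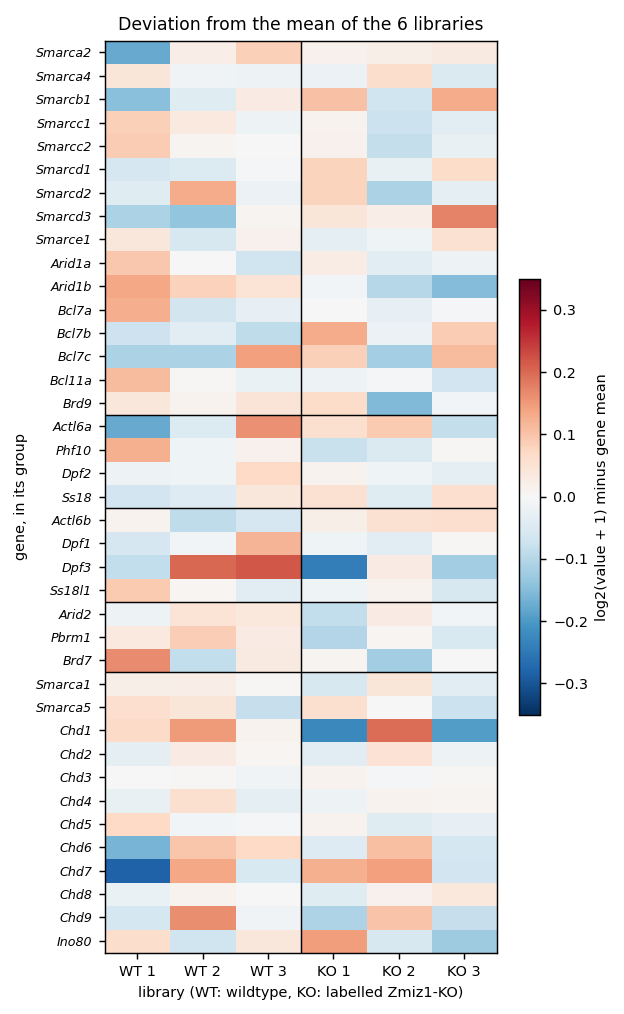
Deviation of log2(value + 1) from the mean of the 6 libraries for each gene (rows) and library (columns, 3 wildtype as WT and 3 labelled Zmiz1-KO as KO), from blue for lower to red for higher. Arid1b is above its mean in every wildtype library and below it with the knockout label. Among the strongest colors are Chd7 in wildtype replicate 1 and Chd1 in replicates 1 and 3 labelled Zmiz1-KO. Dpf3 is also among them, higher in wildtype replicates 2 and 3 and lower in replicate 1 labelled Zmiz1-KO.

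A list of 49 other remodeler genes, such as further subunits of NuRD, ISWI and INO80, was counted in the same way. None passed the test at the adjusted p of 0.05 by limma, 6 (12.2%) had an unadjusted p under 0.05 against 11.0% of all tested genes, and 10 (20.4%) had groups that did not overlap against 16.3%, with 6 higher and 4 lower under the knockout label. These shares lay near the background, as did those of the 39 members, and no difference between the lists was tested. In the list of 49, 21 had positive and 28 negative fold changes, and the median log2 fold change was -0.0061. The 3 with the smallest p were Bcl11b, Ruvbl1 and Smarcad1. Bcl11b, the relative of Bcl11a known as CTIP2 that specifies subcerebral projection neurons and is also strong in striatal neurons, had 5615, 5664 and 5391 normalized counts in wildtype and 6331, 6356 and 5822 with the knockout label, without overlap (log2 fold change 0.15, limma adjusted p = 0.191). Whether the Bcl11b difference goes with the higher summed level of striatal markers given above was not tested. Ruvbl1, a helicase of INO80, had 1031, 1059 and 1091 normalized counts against 1171, 1145 and 1222, and Smarcad1, a remodeler of heterochromatin, 1281, 1271 and 1326 against 1199, 1213 and 1069, with log2 fold changes of 0.15 and -0.16 (limma adjusted p = 0.335 and 0.349).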

How the data were processed

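The authors made libraries with a TruSeq RNA kit (v2), aligned the reads to mm10 with STAR, and deposited gene values normalized with DESeq2 (tool versions not given in the sources used here). These deposited signal values, called normalized counts, are not whole reads, and whole reads could not be recovered. Of 24972 genes, the 15800 reaching 10 normalized counts in 3 or more libraries were compared with limma (version 3.58.1, R version 4.3.3) on log2(value + 1), with a mean-variance trend and robust prior, in all 6 libraries without covariates. Tests were two-sided, with Benjamini-Hochberg adjustment over all tested genes and a threshold of 0.05. An exact permutation test of 3 against 3 libraries cannot go below 0.1. Folds on this scale understate changes of low genes. Exon lengths and coordinates came from GENCODE on GRCm38, which matched 24389 genes (97.7%). The text names all 39 members, the 3 genes of the other remodeler list with the smallest p, the targeted gene and the marker lists, with Chpf2, Mrpl47, Emx1 and Xist chosen after values were seen. Members, lists and tests were chosen with earlier results of these data known. Alternatives changed the test, scaling, filter, pseudocount, threshold, prior, block, Xist covariate, length and GC correction, or left out a library.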

Additional observations from a re-analysis of the deposited data

How the results depend on the processing

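Of 741 member fold changes under 19 alternatives, 694 kept their direction and their side of the threshold, 46 changed sign and 1 passed the threshold. The alternatives of the filter, threshold, prior and block leave each fold change as it was. Under these, a kept direction was fixed in advance. The sign changed somewhere for 18 members, none with a log2 fold change beyond 0.06 in size, and never for the other 21, including Arid1b (-0.21 to -0.14, limma adjusted p 0.0385 to 0.567), Smarcd3 (0.11 to 0.21, 0.0621 to 0.692) and Pbrm1 (-0.13 to -0.037, 0.242 to 0.889). When the replicate numbers were fitted as a block, 168 genes passed in place of 65, and 1 member, Arid1b (-0.17, limma adjusted p = 0.0385), in place of 0. Same-numbered libraries did not deviate together, however (correlations of -0.005, -0.113 and -0.006), so they share only a number, and no library correlated best with its own number. The number of members past the threshold was 0 under every other alternative. All tested genes past the threshold numbered 106 at an adjusted p of 0.1, 17 without robust estimation, 36 with the length and GC correction, and 12 to 151 when a library was left out (30 without wildtype replicate 1, 17, 151 and 12 without replicates 1, 2 and 3 labelled Zmiz1-KO). Members whose groups did not overlap then numbered 6 to 14, where fewer libraries make separation easier (24% to 31.4% of all tested genes). Sign changes were to 0.0024 for Chd2 and 0.0039 for Chd6 with limma-voom. They were to 0.007 for Chd2, 0.0083 for Chd6 and 0.0042 for Smarca4 with upper-quartile scaling, and to 0.0012 and 0.011 for Chd2 and Chd6 with the Xist covariate. The length and GC correction gave 0.0036 for Arid2, 0.037 for Chd2, 0.043 for Chd6, 0.0052 for Chd9, 0.019 for Smarca1, 0.043 for Smarca5 and -0.024 for Smarce1. With that correction, 19 members had positive fold changes, and the median was -0.003 for the members and -0.0079 for all tested genes. Leaving out a library gave -0.033 to 0.13 for Actl6a, -0.056 to 0.026 for Arid1a, -0.06 to 0.035 for Bcl7a, -0.029 to 0.015 for Chd2, -0.014 to 0.032 for Chd4, -0.084 to 0.046 for Chd6, -0.01 to 0.03 for Chd8, -0.12 to 0.007 for Chd9, -0.07 to 0.019 for Dpf1, -0.04 to 0.0048 for Dpf2, -0.10 to 0.033 for Ino80, -0.032 to 0.10 for Smarca2, -0.039 to 0.018 for Smarca4, -0.057 to 0.02 for Smarca5, -0.094 to 0.0094 for Smarcd2 and -0.026 to 0.023 for Smarce1. The causes were not tested. With 3 libraries a group, the 95% interval of a member reached 0.066 to 0.27 on the log2 scale to either side of its fold change.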
